A study of Homo sapiens with 11 samples.

Results

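The collagen genes were taken as all protein-coding genes in RefSeq on GRCh38 whose symbol has the form COL, a number, A and a number, with the gene body and 5 kb on either side of it. There were 44 of them among 20046 protein-coding genes, and their windows covered 7.36 Mb. Of the 888435 narrow peaks in the deposited lists, 2567 lay in these windows. The cells were 92-1, an established line from a uveal melanoma, a tumour of the pigment cells of the eye. Treatment lasted 4 h and was either the solvent DMSO or FHT-1015, which inhibits SMARCA4 and SMARCA2, the alternative ATPases of the BAF chromatin remodelling complexes. Chromatin immunoprecipitation with sequencing (ChIP-seq) was done with antibodies to H3K27ac, SMARCA4, MITF, TFAP2A (AP-2 in the sample titles) and SOX10, with 1 library for each antibody and condition and a DMSO input library. The study asked what inhibiting the remodeller does to the binding of transcription factors, and all libraries came from 1 cell line, so nothing here speaks for other tumours or for normal pigment cells.

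Collagens are triple-helical proteins of the extracellular matrix. Fibrillar collagens form the tensile fibres of connective tissue, type IV collagens form the sheet-like network of basement membranes, FACIT collagens attach to the surface of fibrils, and transmembrane collagens sit in the cell membrane. SOX10 and MITF are transcription factors of the melanocyte lineage, TFAP2A acts in neural crest and skin development, and H3K27ac is a histone mark of active promoters and enhancers. Collagen genes are best known for high activity in fibroblasts and other stromal cells, while pigment cells and melanomas use some of them. In these chromatin data a peak shows where an antibody enriched DNA, and whether fewer cells carried a signal or each cell carried less of it cannot be told apart.

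There were no replicates, so no difference below was tested. The −log10 p of a peak is the authors' value and is used only to rank or filter peaks within a list, while the reads at a summit were worked back from its deposited −log10 p and fold. Where reads are given for both conditions, they belong to overlapping peaks, whose summits need not coincide. Intervals are 95% Wilson intervals for shares and 95% Poisson intervals for reads, and both cover counting error only. A DMSO peak counts as retained if at least 1 bp of it was also under an FHT-1015 peak of that antibody, and as lost if not, and an FHT-1015 peak that touched no DMSO peak is called new. Lists held between 33268 peaks (SOX10, FHT-1015) and 142667 peaks (TFAP2A, DMSO), and the FHT-1015 library had 0.854 (MITF) to 1.15 (SOX10) times the depth of its DMSO partner. Between 57.9% and 95.8% of the peaks of a list had a q-value under 0.05. The cells carried the marks of their labelled type, with an H3K27ac peak in DMSO at the start of 7 of 7 melanocyte genes. The same count was 0 of 6 for fibroblast markers (1 in FHT-1015), 0 of 4 for blood, 0 of 3 for epithelium and 0 of 3 for endothelium.

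The upstream sequences of 6 collagen promoters with at least 1 peak are printed because they show different combinations of peaks met at collagen starts. Starts without any peak, as at 12 of the 44 members in DMSO, are not among them. The first is the stretch of 126 bases that separates the opposed starts of COL4A1 and COL4A2, the 2 chains of the commonest type IV collagen, and the others are the 250 bases before a start. All are from RefSeq, GRCh38.p14, written 5′ to 3′ on the strand of the gene, and capitals mark a match to GCCNNNGGC, the palindromic form of the AP-2 site.
COL4A1 and COL4A2, chr13:110307158-110307283, plus strand: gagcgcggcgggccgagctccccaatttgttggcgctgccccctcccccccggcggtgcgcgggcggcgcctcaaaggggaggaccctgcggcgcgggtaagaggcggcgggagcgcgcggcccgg
COL25A1, chr4:109302659-109302908, minus strand: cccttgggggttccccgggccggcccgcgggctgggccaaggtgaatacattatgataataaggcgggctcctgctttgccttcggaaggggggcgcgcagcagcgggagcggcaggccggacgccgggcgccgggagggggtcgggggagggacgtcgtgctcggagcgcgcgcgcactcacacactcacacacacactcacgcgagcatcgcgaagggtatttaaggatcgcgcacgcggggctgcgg
COL9A1, chr6:70303085-70303334, minus strand: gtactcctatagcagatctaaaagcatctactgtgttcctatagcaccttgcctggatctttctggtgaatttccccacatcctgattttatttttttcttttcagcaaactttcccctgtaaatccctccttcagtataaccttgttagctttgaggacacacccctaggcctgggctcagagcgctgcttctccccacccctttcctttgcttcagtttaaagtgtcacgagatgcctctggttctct
COL19A1, chr6:69866306-69866555, plus strand: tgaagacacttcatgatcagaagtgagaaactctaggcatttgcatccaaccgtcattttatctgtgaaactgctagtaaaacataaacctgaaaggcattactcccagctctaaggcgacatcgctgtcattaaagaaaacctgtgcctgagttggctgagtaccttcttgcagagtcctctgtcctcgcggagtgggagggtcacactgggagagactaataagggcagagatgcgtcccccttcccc
COL12A1, chr6:75206054-75206303, minus strand: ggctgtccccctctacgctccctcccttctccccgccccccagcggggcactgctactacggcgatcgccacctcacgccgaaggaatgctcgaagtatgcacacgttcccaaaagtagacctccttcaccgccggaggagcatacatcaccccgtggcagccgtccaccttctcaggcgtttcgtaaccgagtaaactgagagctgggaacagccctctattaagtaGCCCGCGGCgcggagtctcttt
COL5A1, chr9:134641553-134641802, plus strand: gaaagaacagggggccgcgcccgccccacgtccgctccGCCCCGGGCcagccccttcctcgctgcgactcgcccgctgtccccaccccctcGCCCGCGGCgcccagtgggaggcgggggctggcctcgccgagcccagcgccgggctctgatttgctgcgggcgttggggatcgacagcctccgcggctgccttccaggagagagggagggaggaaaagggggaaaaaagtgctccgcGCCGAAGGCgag

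The stretch between COL4A1 and COL4A2 was overlapped by H3K27ac, SMARCA4 and TFAP2A peaks in both conditions and by a SOX10 peak in DMSO. The COL25A1 stretch had peaks of all 5 antibodies in DMSO and lacked MITF and SOX10 in FHT-1015. The COL9A1 stretch had all 5 in DMSO and none in FHT-1015. The COL19A1 stretch had H3K27ac and SMARCA4 in both conditions and a SOX10 peak in FHT-1015. The COL12A1 stretch had TFAP2A in both conditions, SOX10 in DMSO and SMARCA4 in FHT-1015. The COL5A1 stretch, with 3 GCCNNNGGC matches, had TFAP2A alone in both conditions.

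The promoter table held 44 starts of 32 members; COL1A1, COL1A2, COL2A1, COL3A1, COL5A2, COL6A1, COL6A5, COL8A1, COL9A3, COL14A1, COL20A1 and COL22A1 had no entry. Motifs were searched on both strands in the 250 bases before each start. GCCNNNGGC was found in 13 of these 44 promoters (29.5%) and in 23.4% of 22174 promoters of all protein-coding genes. ACAAAG, a SOX motif, was found in 13.6% of collagen promoters and 11.6% of all, and its variant ACAATG in 2.27% and 6.93%. The E-box CACGTG, a MITF motif, was found in 0 of the 44 collagen promoters and in 7.38% of all, and CACATG in 4.55% and 7.59%. None of the 5 motifs contains another, and 25 collagen promoters held none of them, a count that was not made over all promoters. GCCNNNGGC stood in 9 of the 21 collagen promoters that had a TFAP2A peak in DMSO (42.9%) and in 4 of the 23 that had none (17.4%). Over all promoters these shares were 31.0% and 14%. Overlapping windows were each counted, as at COL5A1 (chr9:134641553-134641802 and chr9:134641555-134641804), where both held the same 3 GCCNNNGGC matches.

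Most SOX10 peaks of the collagen genes in DMSO had no called counterpart in FHT-1015, as at all other genes. A SOX10 peak lay at 43 of the 44 genes in DMSO, beside 81.5% of all genes. The family held 296 such peaks with the solvent and 94 with FHT-1015, a ratio of 0.318 beside 0.341 at all other genes, and the length under SOX10 peaks went from 120 to 30.3 kb. Of the 296 DMSO peaks, 35 were retained (11.8%, 8.63 to 16.0), against 21.3% (21 to 21.6) of the SOX10 peaks of all other protein-coding genes. The number of SOX10 peaks was lower in FHT-1015 at 38 of the 44 members (86.4%), where 80.1% of all genes with a SOX10 peak had fewer. It was higher at 4 members (9.09%, against 7.56% of all genes), which were COL5A1, COL23A1, COL11A1 and COL5A3. Among the 29 members with at least 6 SOX10 peaks in both conditions together, the number at least halved at 22 (75.9%), beside 68.7% of the 6625 genes counted so. It at least doubled at 1 member, COL5A1, beside 1.69%. The median FHT-1015 to DMSO ratio was 0.2 for these 29 members and 0.4 for all genes counted. With peaks of −log10 p of at least 10 only, the pooled SOX10 numbers were 122 in DMSO and 13 in FHT-1015, a ratio of 0.107 beside 0.12 at all other genes.

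At least 1 H3K27ac peak lay in the window of 37 members in DMSO, beside 71.2% of all genes. These peaks went from 151 to 94, a ratio of 0.623 beside 0.731 at all other genes. Of the 151, 52.3% (44.4 to 60.1) were retained, beside 62.5% at all other genes. Peaks became fewer at 25 of the 38 members that had any (65.8%, beside 53.7% of all genes) and more at 5 (13.2%, beside 15.1%). Among 17 members with at least 6 peaks, 8 at least halved (28.6% of all genes so counted did), among them COL4A1, COL4A2, COL8A1 and COL9A3. The 2 that at least doubled were COL11A1 and COL19A1 (2.79% of all genes so counted). New H3K27ac peaks were few, 14 of 94 (14.9%, beside 19.1% at all other genes), and none reached a −log10 p of 10. At all other genes 556 of 6874 new peaks did.

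SMARCA4 peaks, present at 43 members in DMSO (75.7% of all genes), went from 293 to 252, a ratio of 0.860 beside 0.909 at all other genes. Over peaks of −log10 p of at least 10, which numbered 58 and 42, the ratio was 0.724, beside a rise to 1.14 at all other genes. The length under SMARCA4 peaks had a ratio of 0.876, beside 1.09. Of the 252, 124 were new (49.2%, beside 42.7% at all other genes). Of the DMSO peaks 43.0% (37.5 to 48.7) were retained, beside 57.8% at all other genes. SMARCA4 peaks were fewer at 26 members (59.1%, beside 41.3% of all genes with a peak) and more at 12 (27.3%, beside 37.8%). At least halving was seen at 8 of 36 members, beside 12.4% of all genes so counted, and at least doubling at 5, beside 9.49%. The 5 were COL4A2, COL6A2, COL6A3, COL13A1 and COL23A1.

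MITF had 220 peaks in each condition (a ratio of 0.971 at all other genes), with 157 DMSO peaks lost and 155 new. In DMSO 41 members had one, beside 75.2% of all genes. The retained share was 28.6% (23.1 to 34.9), beside 41.1% at all other genes. The new MITF peaks were weak, with a median −log10 p of 3.53, and 2 of the 155 reached 10. All other genes had a like median of 3.59, and 57.5% of their MITF peaks in FHT-1015 were new beside 70.5% here. Counting only peaks of −log10 p of at least 10, MITF went from 77 to 21, a ratio of 0.273 beside 0.475 at all other genes, and with q under 0.05 the ratio was 0.609. MITF peaks were fewer at 22 members (beside 41.0% of all genes) and more at 17 (beside 36.8%). At least halving was seen at 9 of 29 members (16.4% of all genes so counted) and at least doubling at 6 (13.2%).

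TFAP2A had the most collagen peaks, 481 with DMSO and 466 with FHT-1015, and all 44 members had at least 1 in DMSO (86.5% of all genes did). It retained 54.5% (50 to 58.9), beside 60.7% at all other genes. TFAP2A peaks were fewer at 29 members (65.9%, beside 41.3% of all genes) and more at 13 (29.5%, beside 35.2%). At least halving was seen at 13 of 41 members (11.7% of all genes so counted). At least doubling was seen at 5, namely COL5A1, COL7A1, COL9A2, COL20A1 and COL22A1 (7.68%). The pooled ratio was 0.969 over all peaks, beside a lower 0.896 at all other genes. Over peaks of −log10 p of at least 10, which numbered 207 and 126, it was 0.609 beside 0.691.

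**Figure D1:**
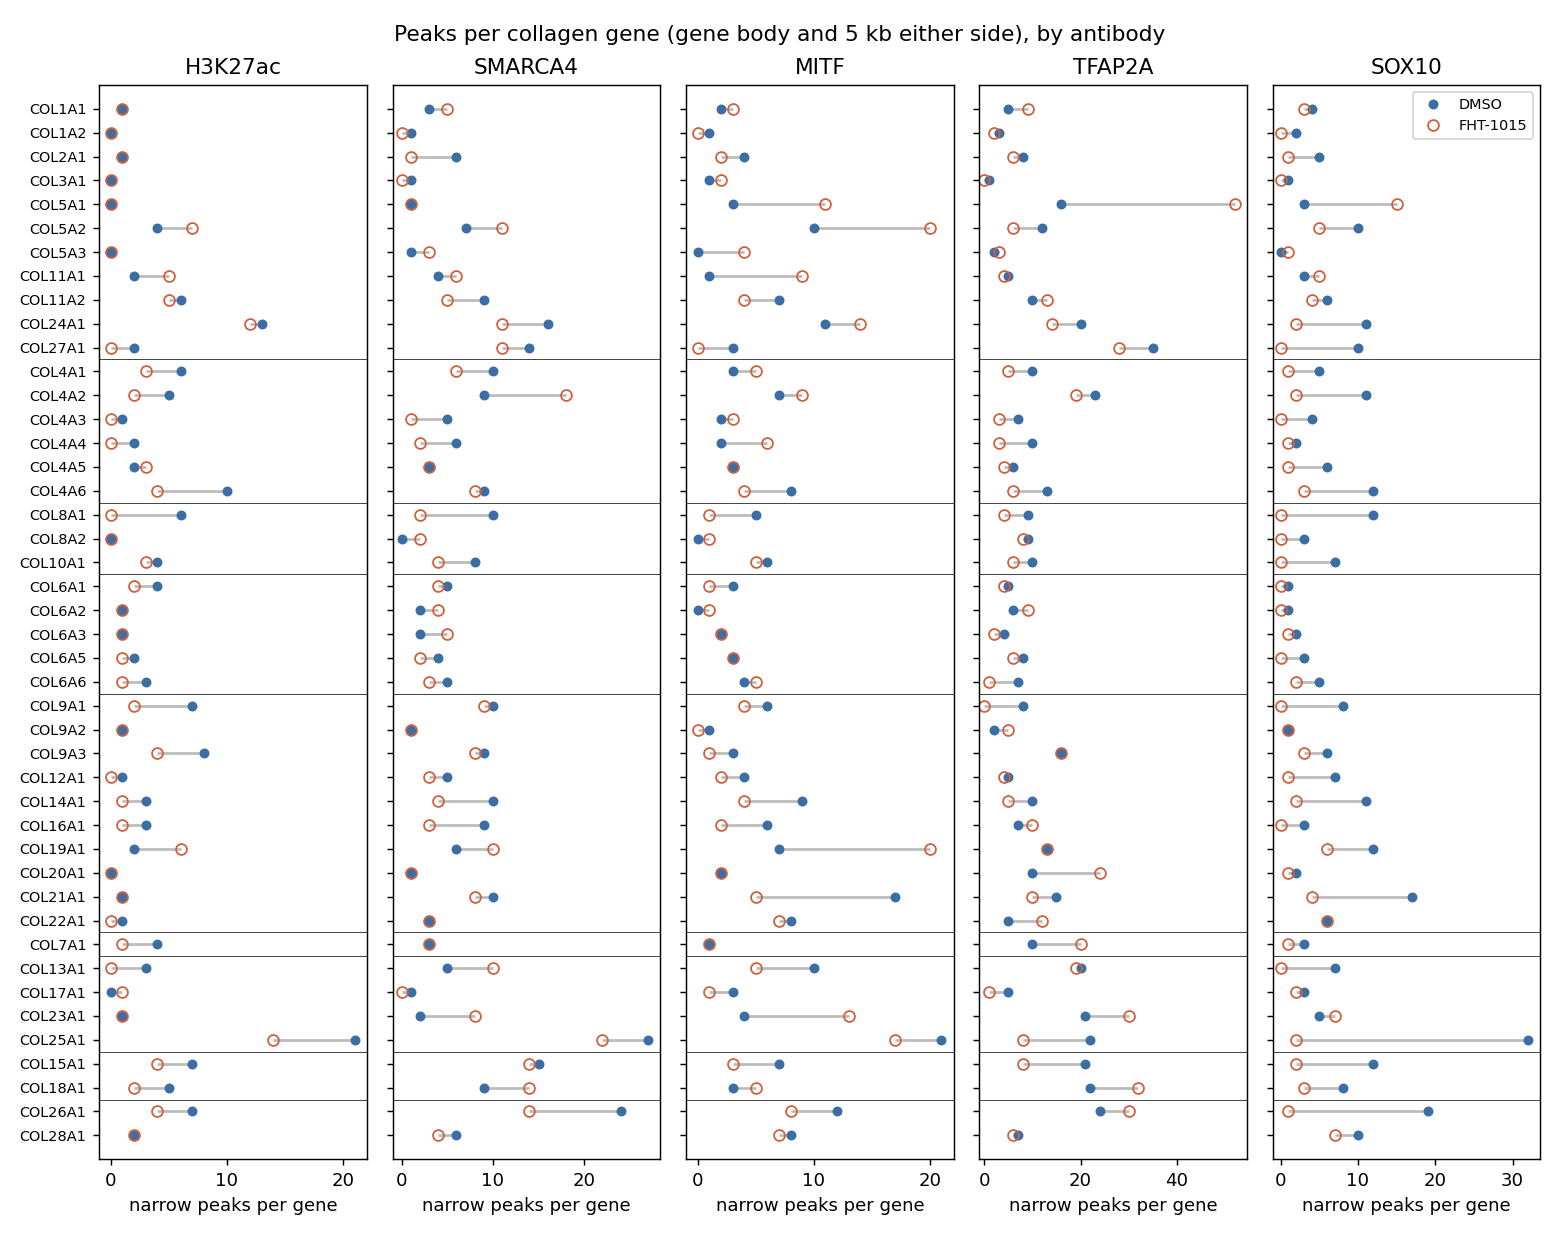
Number of narrow peaks (horizontal axes) in the window of each of the 44 collagen genes (rows, grouped by class, with lines between classes) for the 5 antibodies; filled points are DMSO and open points FHT-1015. SOX10 fell from 32 to 2 peaks at COL25A1 and from 19 to 1 at COL26A1, while COL5A1 stands out for its 52 TFAP2A and 15 SOX10 peaks in FHT-1015.

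Collagen peaks lay farther from gene starts than those of other genes. Peaks near starts were retained more often for every antibody except collagen MITF, which was retained less often there. A start here was one listed by RefSeq, or either gene boundary where none was listed. Within 1 kb of any start lay 12.6% of collagen H3K27ac peaks in DMSO, beside 32.0% at other genes. SMARCA4 had 11.3% there beside 28.5% at other genes, MITF 7.73% beside 20.9%, TFAP2A 8.11% beside 22.1%, and SOX10 10.1% beside 27.7%. Among peaks over 1 kb from every start, a split chosen after seeing the data, H3K27ac was retained at 47.7% of collagen peaks and 48.4% of others. TFAP2A was retained at 52.3% and 53.2%, SOX10 at 10.2% (7.07 to 14.4) and 12.6%, and MITF at 30% (24.2 to 36.7) and 33.9%. The collagen intervals of these 4 antibodies include the value of the other genes. For SMARCA4, 36.9% (31.3 to 42.9) of distal collagen peaks and 46.1% (45.7 to 46.5) of distal peaks elsewhere were retained, and the intervals do not meet. Near starts the contrast lay in MITF, with 2 of 17 collagen peaks retained (11.8%, 3.29 to 34.3) and 68.2% elsewhere. Near-start SOX10 was retained at 8 of 30 collagen peaks (26.7%, 14.2 to 44.4) and at 44.1% elsewhere. Peak strength was not matched in these near-start contrasts, and its part in them was not tested.

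**Figure D2:**
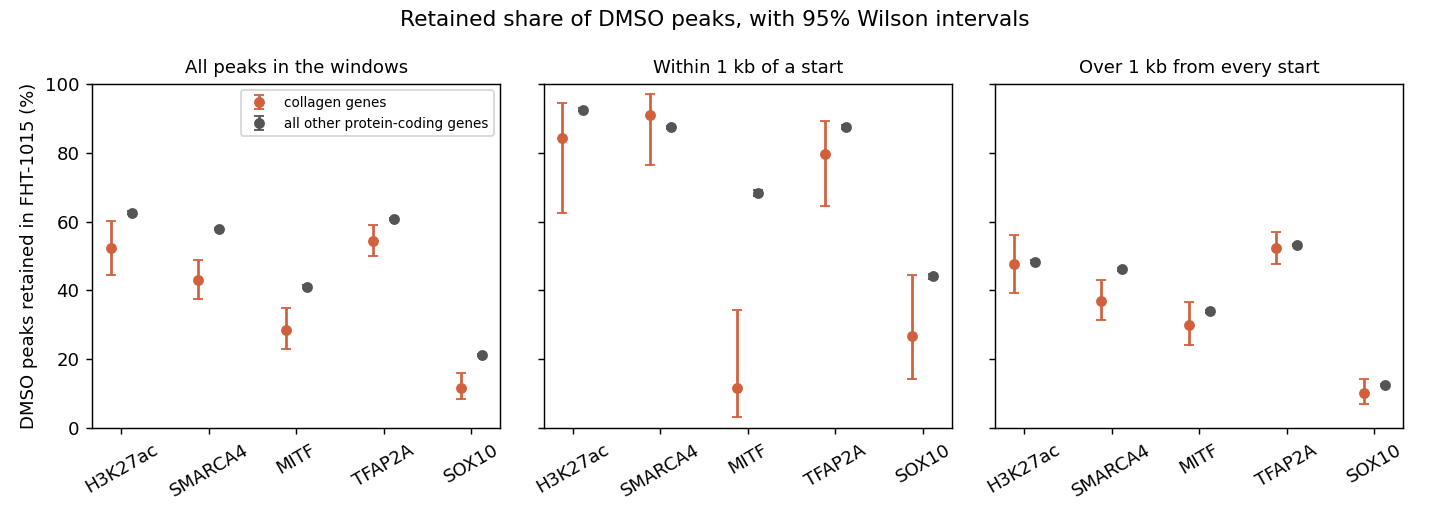
Share of DMSO peaks retained in FHT-1015 (vertical axis, percent) for each antibody, at collagen genes and at all other protein-coding genes, over all peaks, near starts and away from starts; bars are 95% Wilson intervals over peaks. Away from starts the collagen SMARCA4 interval, 31.3 to 42.9, lies below the 46.1 of other genes, and near starts collagen MITF stands at 11.8 beside 68.2. Peak strength was not matched between collagen and other genes.

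Among the fibrillar collagens, 11 genes, H3K27ac went from 29 to 31 peaks and 79.3% (61.6 to 90.2) were retained, while SOX10 went from 55 to 36. COL24A1, a fibrillar chain with a restricted pattern of use, carried 13 H3K27ac peaks in DMSO and 12 in FHT-1015, 11 of the 13 being retained. Its SMARCA4 peaks numbered 16 and 11, its MITF peaks 11 and 14, its TFAP2A peaks 20 and 14, and its SOX10 peaks 11 and 2. Most H3K27ac peaks of COL24A1 were thus retained, and 2 of its 11 SOX10 peaks were. COL27A1 was rich in TFAP2A, with 35 DMSO and 28 FHT-1015 peaks, and poor in H3K27ac, with 2 and 0. Its SOX10 peaks went from 10 to 0, its MITF peaks from 3 to 0 and its SMARCA4 peaks from 14 to 11. Among its lost TFAP2A peaks was one of 92 reads (chr9:114281013-114281927), with 30 SOX10 and 25 SMARCA4 reads that also went to no peak.

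The gains in peak number were largest at COL5A1, which encodes a chain of type V collagen, a regulator of fibril diameter. It had 3 SOX10 peaks in DMSO, none retained, and 15 in FHT-1015. The 15 had a median −log10 p of 3.65 and reached at most 6.41, so all were weak peaks. TFAP2A went from 16 to 52 peaks there, with 14 retained and 38 new, and MITF from 3 to 11. COL5A1 had no H3K27ac peak in either condition and 1 SMARCA4 peak in each. Its strongest new TFAP2A peak, at chr9:134678335-134678609, was the strongest new TFAP2A peak of the family, with 26 reads at its summit (17 to 38.1). COL5A2, the partner chain, went from 10 to 20 MITF peaks, from 4 to 7 H3K27ac peaks and from 7 to 11 SMARCA4 peaks, but from 12 to 6 TFAP2A and from 10 to 5 SOX10 peaks. At COL11A1, a chain of cartilage and vitreous collagen, SOX10 went from 3 to 5 peaks, MITF from 1 to 9, H3K27ac from 2 to 5, SMARCA4 from 4 to 6 and TFAP2A from 5 to 4. COL11A2 had 6 and 5 H3K27ac peaks, 9 and 5 SMARCA4, 7 and 4 MITF, 10 and 13 TFAP2A, and 6 and 4 SOX10.

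Single sites at fibrillar genes went in different directions. The site 3′ of COL1A1, a chain of type I collagen, at chr17:50181066-50181797, had peaks of all 5 antibodies in both conditions. Its summit held 218 H3K27ac reads in DMSO and 265 in FHT-1015. SMARCA4 had 80 and 86 reads, MITF 158 and 95, TFAP2A 110 and 30, and SOX10 202 and 66. The nearest other gene, SGCA, lies 5503 bp from its middle. At COL2A1, the collagen of cartilage, a site in the gene (chr12:48001715-48003369) had 171 and 63 TFAP2A reads, 24 and 50 SMARCA4 reads, 157 and 120 H3K27ac reads, and a SOX10 peak of 51 reads in DMSO only. Upstream of COL11A1, at chr1:103110548-103115088, H3K27ac went from 128 to 175 reads, SOX10 from 81 to 74 and SMARCA4 from 33 to 34. A MITF peak of 24 reads was called there in FHT-1015 alone, the strongest new MITF peak of the family.

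The 6 type IV genes lie in 3 head-to-head pairs, and peaks in overlapping windows were counted once for the class. As a class they went from 35 to 6 SOX10 peaks, from 63 to 36 TFAP2A peaks and from 24 to 9 H3K27ac peaks, with 33.3% (18 to 53.3) of the H3K27ac peaks retained. SMARCA4 went from 38 to 34 and MITF from 22 to 26. COL4A2 alone had 23 and 19 TFAP2A peaks, 9 and 18 SMARCA4 peaks, 7 and 9 MITF peaks, 5 and 2 H3K27ac peaks and 11 and 2 SOX10 peaks. Its strongest TFAP2A peak in FHT-1015 (chr13:110455615-110456346) stood almost without other factors, with 159 reads in DMSO (135 to 186) and 180 in FHT-1015 (155 to 208). A SOX10 peak of 37 reads accompanied it in DMSO and none in FHT-1015. COL4A6, a chain of smooth muscle and epithelial basement membranes, went from 12 to 3 SOX10 peaks, from 13 to 6 TFAP2A peaks and from 10 to 4 H3K27ac peaks. Its SMARCA4 peaks numbered 9 and 8 and its MITF peaks 8 and 4.

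The 3 short-chain network genes lost all of their 22 SOX10 peaks and gained none, and counting error allows a retained share of up to 14.9%. COL8A1, a chain of vascular and corneal endothelial matrix, lost more than SOX10. It had 12 and 0 SOX10 peaks, 6 and 0 H3K27ac peaks, 10 and 2 SMARCA4 peaks, 5 and 1 MITF peaks, and 9 and 4 TFAP2A peaks. The 5 beaded filament genes of type VI collagen went from 12 to 3 SOX10 peaks, while SMARCA4 stood at 18 in both conditions and MITF at 12. COL6A1 had 4 and 2 H3K27ac peaks, 5 and 4 SMARCA4, 3 and 1 MITF, 5 and 4 TFAP2A, and 1 and 0 SOX10. At COL6A3 a site 23738 bp from the nearest start (chr2:237389823-237390764) carried 1 of the 3 strongest lost SOX10 peaks of the family. Its SOX10 summit had 142 reads in DMSO and no peak in FHT-1015, TFAP2A went from 175 to 34 reads, SMARCA4 from 49 to 17, H3K27ac from 35 to 20, and MITF from 40 to no peak.

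The FACIT class, 10 genes, went from 73 to 24 SOX10 peaks and from 63 to 46 MITF peaks, and TFAP2A from 91 to 99. COL21A1 had 17 and 4 SOX10 peaks, 17 and 5 MITF, 15 and 10 TFAP2A, 10 and 8 SMARCA4, and 1 and 1 H3K27ac. The 4 SOX10 peaks were at DMSO places, and no new one was called. The strongest SOX10 peak of all collagen genes in DMSO, the 45th of that list by −log10 p, lay inside COL21A1 and 12016 bp from the nearest RefSeq start (chr6:56381779-56382498). It had 274 reads (243 to 308) at its summit in DMSO and no peak in FHT-1015. At the same site MITF went from 117 reads to no peak, TFAP2A from 55 to no peak, and SMARCA4 from 90 (72.4 to 111) to 31 (21.1 to 44.0). No H3K27ac peak overlapped the SMARCA4 peak there in either condition. The strongest SMARCA4 peak of the family in DMSO, at chr6:56297401-56298196 in the same gene, went from 69 to 17 reads, with SOX10 going from 103 to 23 and TFAP2A from 76 to 17. The strongest lost TFAP2A peak of the family was also here (chr6:56277961-56278622), with 136 reads in DMSO beside 68 for SOX10, 32 for SMARCA4 and 22 for MITF, and no peak of the 4 in FHT-1015. A lost SMARCA4 peak of 41 reads in COL21A1 (chr6:56380524-56380838) overlapped a lost SOX10 peak of 66 reads.

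A site that reaches from upstream of COL19A1 over its start (chr6:69860735-69868244) held H3K27ac summits of 120 reads in DMSO (99.5 to 143) and 210 in FHT-1015 (183 to 240). MITF went from 29 (19.4 to 41.6) to 95 (76.9 to 116), SMARCA4 from 49 to 84, TFAP2A from 93 to 147 and SOX10 from 110 to 136. All 5 antibodies had more summit reads in FHT-1015 there, although the SMARCA4, MITF and TFAP2A libraries were the shallower of each pair. The intervals of the 2 conditions do not meet for H3K27ac, MITF, SMARCA4 and TFAP2A and do meet for SOX10. Over the whole gene SOX10 nevertheless went from 12 to 6 peaks, while MITF went from 7 to 20, H3K27ac from 2 to 6 and SMARCA4 from 6 to 10, with TFAP2A at 13 and 13.

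COL9A1, which lies on the opposite strand downstream of COL19A1 and encodes a chain of cartilage type IX collagen, went the other way. It had 8 and 0 SOX10 peaks, 8 and 0 TFAP2A peaks, 7 and 2 H3K27ac peaks, 6 and 4 MITF peaks, and 10 and 9 SMARCA4 peaks. Among the 3 strongest lost H3K27ac peaks was one of COL9A1 (chr6:70281590-70282170) with 53 reads, where SOX10 (68), TFAP2A (54) and MITF (17) also went to no peak and SMARCA4 from 29 to 24. The strongest lost SMARCA4 peak of the family lay in the same gene (chr6:70245065-70245617), with 32 reads in DMSO. H3K27ac went there from 78 to 23 reads, MITF from 31 to 9, and TFAP2A (41) and SOX10 (39) to no peak. COL9A3, another type IX chain, had 8 and 4 H3K27ac peaks, 9 and 8 SMARCA4, 3 and 1 MITF, 16 and 16 TFAP2A, and 6 and 3 SOX10. It carried the strongest TFAP2A peak of the family in DMSO (chr20:62817109-62819315), which went from 222 reads (194 to 253) to 55 (41.4 to 71.6). At its gene boundary (chr20:62815314-62816932) TFAP2A went from 171 to 86 reads, H3K27ac from 152 to 61, SMARCA4 from 42 to 30, and MITF from 16 to no peak. SOX10 had a peak of 67 reads there in DMSO. The FHT-1015 SOX10 peak that touched the end of this DMSO peak, with 22 reads (chr20:62817090-62817583), lay outside the site. Another TFAP2A site of COL9A3, at chr20:62819389-62820958, rose from 44 to 98 reads. At COL16A1 a site 2838 bp from the nearest start (chr1:31700590-31701856) went from 96 SOX10 reads to no peak, from 103 to 29 TFAP2A reads, from 95 to 36 H3K27ac reads, from 73 to 30 SMARCA4 reads and from 41 to 18 MITF reads. COL14A1 and COL22A1 also held strongest-lost sites: at COL22A1 all 5 antibodies had a peak in DMSO, SOX10 with 184 reads and MITF with 81, and none in FHT-1015. COL14A1 lost a MITF peak of 83 reads and a TFAP2A peak of 93 reads.

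**Figure D3:**
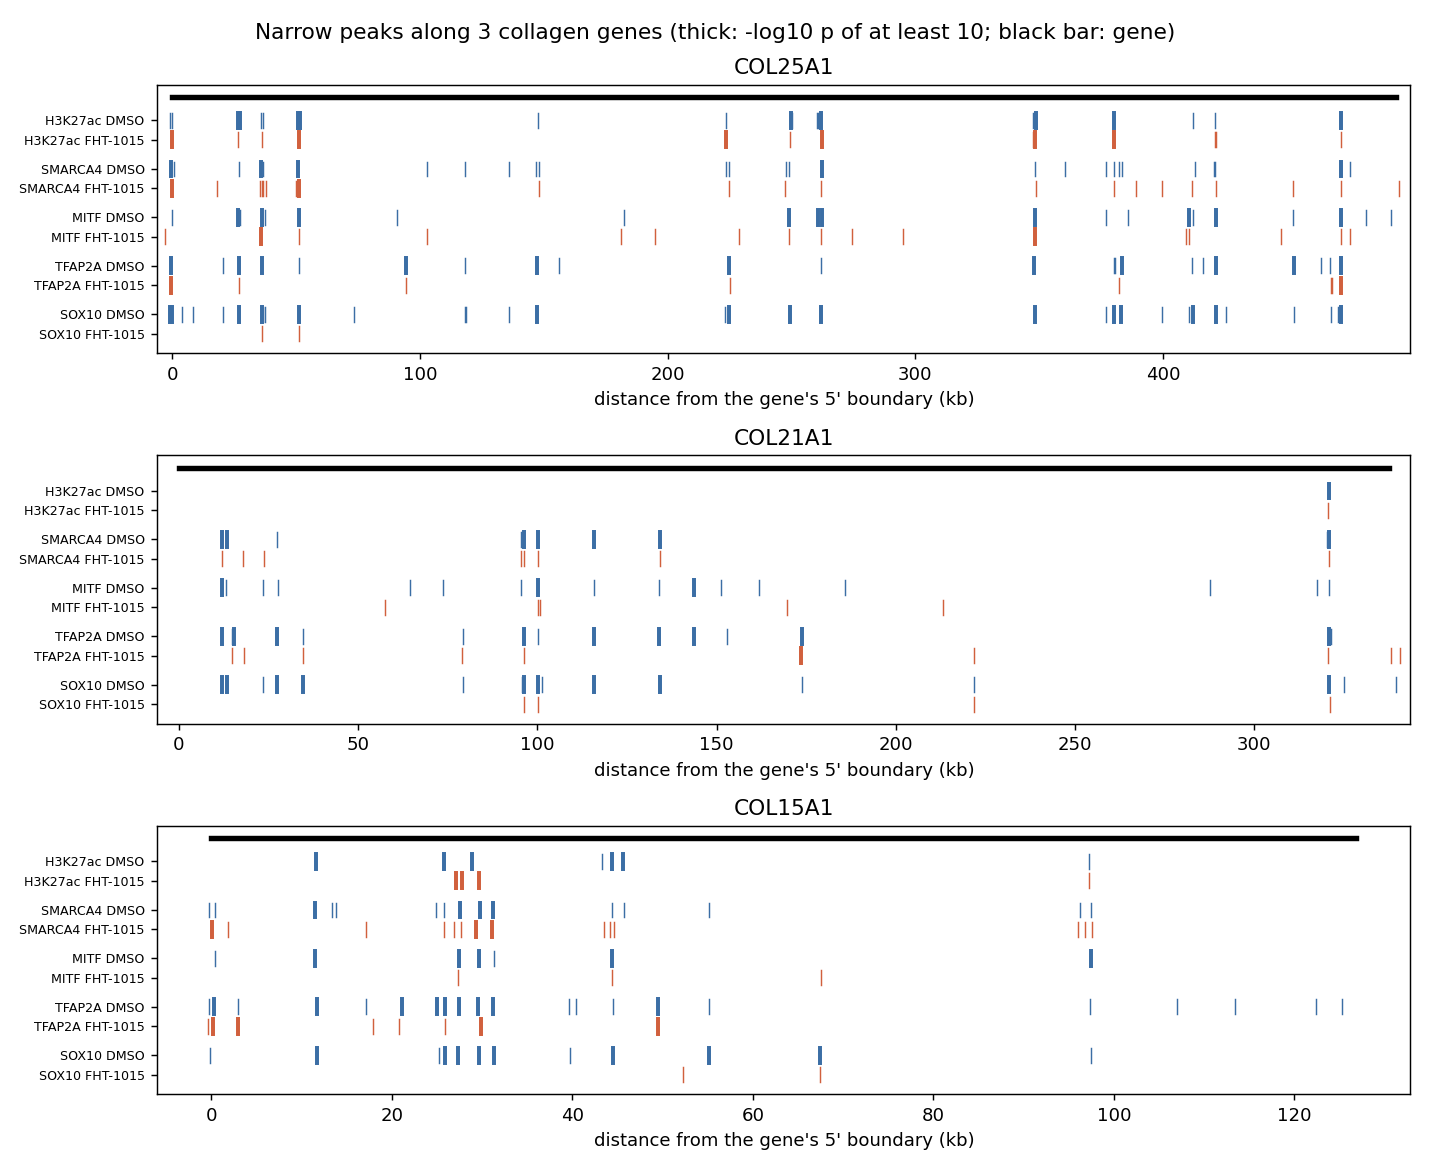
Narrow peaks along COL25A1, COL21A1 and COL15A1 (horizontal axes: distance in kb from the 5′ boundary of the gene, black bar), in a row for each antibody and condition; thick marks stand for a −log10 p of 10 or more. The SOX10 FHT-1015 row of these genes is nearly empty (2, 4 and 2 peaks), while SMARCA4 has 22, 8 and 14 peaks in FHT-1015.

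The transmembrane collagens, 4 genes, went from 47 to 11 SOX10 peaks, from 35 to 40 SMARCA4 peaks and from 25 to 16 H3K27ac peaks. COL25A1, a neuronal transmembrane collagen found in amyloid plaques, had the most peaks of any member, 123 in DMSO over the 5 antibodies, in a gene of 494 kb. SOX10 went from 32 to 2 peaks and from 13.6 to 0.441 kb of covered length. Those of −log10 p 10 or more numbered 15 in DMSO and 0 in FHT-1015. H3K27ac went from 21 to 14 peaks with 15 retained, SMARCA4 from 27 to 22 with 13 retained, MITF from 21 to 17 with 7 retained, and TFAP2A from 22 to 8 with 6 retained. The start of COL25A1 (chr4:109301536-109304027) showed the opposite for SMARCA4, which went from 35 reads (24.4 to 48.7) to 77 (60.8 to 96.2). H3K27ac stood there at 22 and 25 reads, TFAP2A went from 88 to 38, and MITF (16) and SOX10 (25) had a peak in DMSO only. Another gene, COL25A1-DT, lies 253 bp from the middle of this site. COL13A1 had 20 and 19 TFAP2A peaks, 10 and 5 MITF, 7 and 0 SOX10, 5 and 10 SMARCA4, and 3 and 0 H3K27ac. COL23A1 had 5 and 7 SOX10 peaks, 4 and 13 MITF, 2 and 8 SMARCA4, 21 and 30 TFAP2A, and 1 and 1 H3K27ac.

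The multiplexins are the heparan or chondroitin sulfate collagens of the basement membrane zone. COL15A1 had 12 and 2 SOX10 peaks, 21 and 8 TFAP2A, 7 and 3 MITF, 7 and 4 H3K27ac, and 15 and 14 SMARCA4. The strongest H3K27ac peak and the strongest MITF peak of the family in DMSO were at 1 site of COL15A1 inside the gene (chr9:98970103-98975459). H3K27ac there went from 231 reads (202 to 263) to 52 (38.8 to 68.2), MITF from 180 (155 to 208) to 23 (14.6 to 34.5), TFAP2A from 114 to 30 and SOX10 from 115 to no peak. SMARCA4 had 61 reads (46.7 to 78.4) in DMSO at chr9:98970577-98972268 and 39 (27.7 to 53.3) in FHT-1015 at chr9:98972139-98974249. Their intervals meet, but these peaks overlap only at their ends, so the reads are mostly from different stretches. Another site of COL15A1, chr9:98954789-98956241, had 98 TFAP2A, 51 H3K27ac, 44 SOX10, 38 SMARCA4 and 27 MITF reads in DMSO and no peak of any antibody in FHT-1015. The strongest lost H3K27ac peak of the family was at another site of the gene (chr9:98987569-98988991), where H3K27ac went from 105 reads to no peak and MITF from 132 to 27, and SMARCA4 had 29 and 24. COL18A1, the precursor of endostatin, went from 22 to 32 TFAP2A peaks, from 9 to 14 SMARCA4, from 3 to 5 MITF, from 5 to 2 H3K27ac and from 8 to 3 SOX10.

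COL26A1 and COL28A1 belong to none of these classes. COL26A1 had 19 and 1 SOX10 peaks, 24 and 30 TFAP2A, 24 and 14 SMARCA4, 12 and 8 MITF, and 7 and 4 H3K27ac, and its only SOX10 peak in FHT-1015 was new. COL28A1 went from 10 to 7 SOX10 peaks. A site in the gene, 108763 bp from the nearest start (chr7:7425736-7430053), held the strongest H3K27ac peak of the family in FHT-1015, with 221 reads in DMSO (193 to 252) and 317 in FHT-1015 (283 to 354). SMARCA4 went there from 66 to 93 reads, MITF from 25 to 36 and TFAP2A from 60 to 81. SOX10 kept 160 reads (136 to 187) beside 176 in DMSO (151 to 204), in a library with 1.15 times the depth. COL19A1 and COL28A1 held the 2 collagen sites with the highest −log10 p for SOX10 in FHT-1015.

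**Figure D4:**
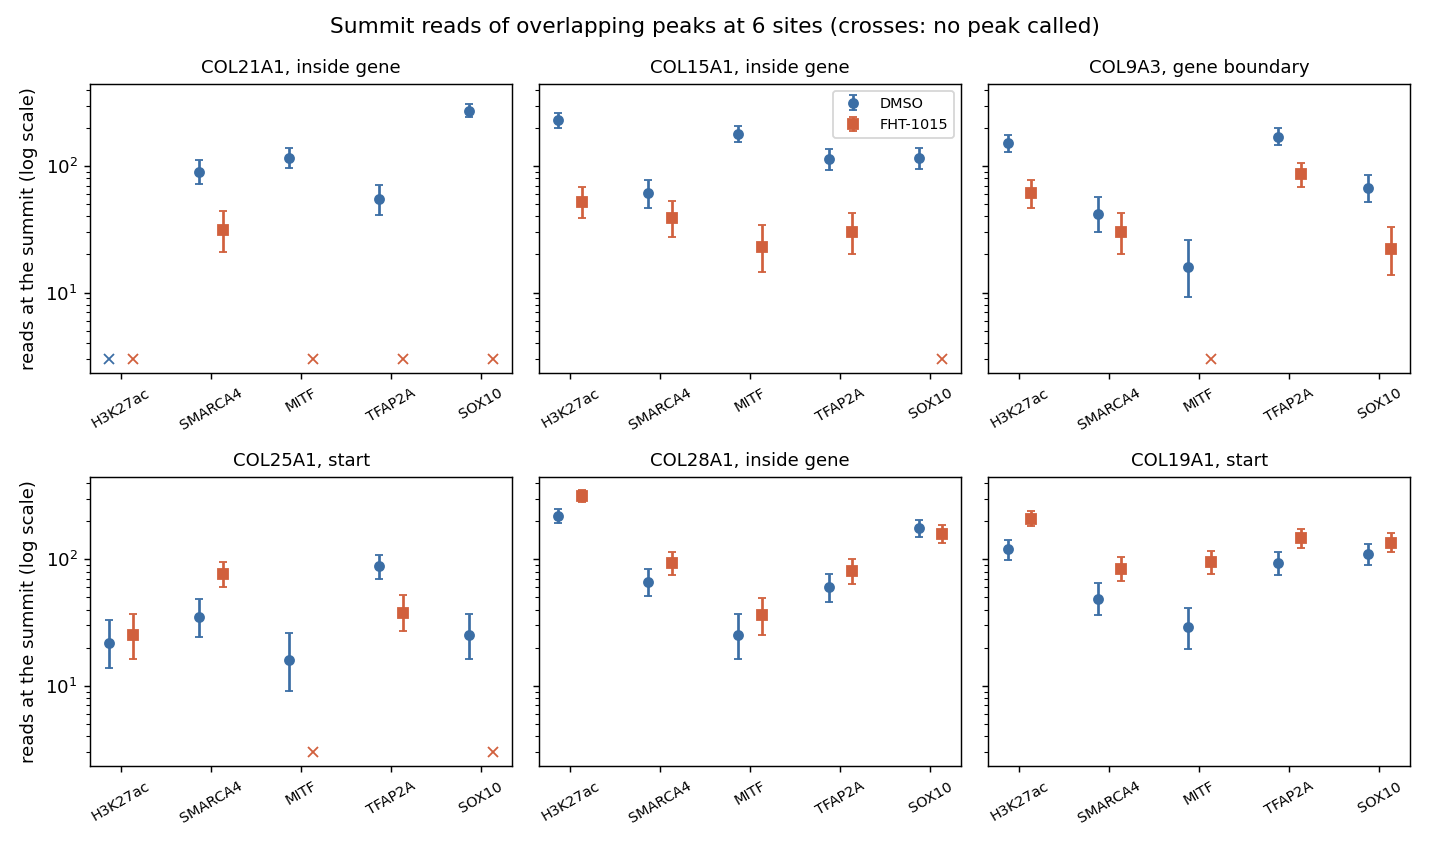
Reads at the summit of the stronger peak and of the peak of the other condition that overlapped it (vertical axis, log scale) for each antibody at 6 collagen sites, DMSO as circles and FHT-1015 as squares with 95% Poisson intervals; crosses mark that no peak was called. SOX10 went from 274 reads to no peak at COL21A1 and from 115 to no peak at COL15A1, and stood at 176 and 160 at COL28A1 and at 110 and 136 at COL19A1.

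For each antibody, fewer collagen starts were occupied than over all genes. In DMSO an H3K27ac peak lay within 1 kb of the start of 14 of 44 members, beside 57.9% of all protein-coding genes. A SMARCA4 peak was there at 21 members (58.4% of all genes), a MITF peak at 12 (46.1%), a TFAP2A peak at 26 (68.4%) and a SOX10 peak at 20 (63.2%). Starts without a peak of any antibody were about as common as elsewhere, at 12 of 44 members and 26.3% of all genes. Where the table listed no start, either gene boundary counted as one. Starts were counted per gene, so a peak at the shared start of a type IV pair counted for both members.

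All 5 antibodies had a peak in DMSO at the start of 7 members (36.9% of all genes), which were COL5A2, COL6A1, COL9A1, COL9A3, COL11A2, COL19A1 and COL25A1. For COL5A2, COL6A1 and COL9A3 this start is either gene boundary. The COL5A2 window also reaches the gene WDR75, and that of COL9A3 reaches OGFR and TCFL5. Whether the boundary peaks belong to those genes was not tested. In FHT-1015 there were 5 (28.6% of all genes): COL5A2, COL9A3, COL19A1, COL4A1 and COL4A2. COL4A1 and COL4A2 joined through a MITF peak at their shared start. COL9A1 lost H3K27ac, TFAP2A, MITF and SOX10 at its starts and kept SMARCA4. At COL11A2, a chain of cartilage type XI collagen, the start site (chr6:33190140-33196037, with RXRB 499 bp from its middle) went from 201 to 130 H3K27ac reads, from 152 to 43 TFAP2A reads, from 87 to 25 SOX10 reads and from 24 MITF reads to no peak. Another COL11A2 site, in its 3′ flank (chr6:33160982-33162425), went from 155 to 51 MITF reads and from 120 SOX10 reads to no peak, with SMARCA4 at 52 and 52.

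Losses at starts differed between the antibodies. MITF was lost at 8 of 12 starts, beside 20.0% of all genes with a MITF start peak, and SOX10 at 11 of 20, beside 37.3%. The strength of the start peaks was not matched in these counts. SMARCA4 was lost at 0 of 21 (4.94% of all genes), H3K27ac at 1 of 14, COL9A1 (2.88%), and TFAP2A at 2 of 26, COL9A1 and COL10A1 (5.11%). The 8 members that lost MITF at the start were COL4A5, COL4A6, COL6A1, COL9A1, COL11A2, COL13A1, COL15A1 and COL25A1. COL4A5 and COL4A6 have overlapping promoters, as do COL4A1 and COL4A2, so peaks there were counted for both genes of the pair. No start without H3K27ac in DMSO, of 30, had it in FHT-1015 (3.49% of all genes). New start peaks were seen for SMARCA4 at COL11A1 and COL12A1 (19.4% of all genes without one in DMSO), for MITF at COL4A1, COL4A2 and COL10A1 (13%), for TFAP2A at COL1A2 (11.5%) and for SOX10 at COL28A1 (2.23%). The COL12A1 start peak (chr6:75205123-75206422) was the strongest new SMARCA4 peak of the family, with 22 reads (13.8 to 33.3), in the promoter printed above. TFAP2A stood there at 22 and 27 reads, and a SOX10 peak of 14 reads was called in DMSO only. The strongest new peaks of the remaining antibodies were weak, with 14 H3K27ac reads at COL5A2 and 17 SOX10 reads at COL9A2.

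The factors were met together far less often after the inhibitor. Merging the peaks of SMARCA4, MITF, TFAP2A and SOX10 that overlapped gave 722 sites at collagen genes in DMSO and 814 in FHT-1015. In DMSO 94 sites had all 4 factors (13%, 10.8 to 15.7), and in FHT-1015 15 had (1.84%, 1.12 to 3.02). At all other genes the shares were 13.2% and 5.01%. Sites with a single factor went from 454 (62.9%) to 693 (85.1%). Of the 94 sites with 4 factors, 65 also had H3K27ac in DMSO, and 14 of the 15 in FHT-1015 did. At all other genes 16466 of 19404 such sites had it in DMSO and 7189 of 7383 in FHT-1015.

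Of the 94 sites with 4 factors, 14 (14.9%) kept all 4. SOX10 remained at 21 of these 94 (22.3%, 15.1 to 31.8) and at 7 of the 61 sites that had SOX10 alone (11.5%, 5.67 to 21.8). It remained at 2 of 66 of its sites with 2 factors (3.03%, 0.835 to 10.4) and at 6 of 61 with 3 factors (9.84%, 4.59 to 19.8), so the share did not rise step by step with the number of factors. Peak strength moved with retention as well, and its part in these shares was not tested. The median −log10 p in DMSO was 17.4 for SOX10 peaks that were retained and 7.70 for those that were lost. For MITF these medians were 18.7 and 5.52.

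Sites with 4 factors were most numerous at COL25A1 (8 in DMSO), COL15A1 (7) and COL21A1 (6), and none was left at these 3 genes in FHT-1015. COL19A1 had 3 in each condition, and COL24A1 (from 5), COL5A2 (from 3) and COL4A6 (from 4) had 2 each in FHT-1015. Of the SOX10 peaks in DMSO, 65.5% overlapped a TFAP2A peak, 58.8% a SMARCA4 peak, 41.2% a MITF peak and 38.9% an H3K27ac peak. Of the 94 in FHT-1015 these shares were 35.1%, 39.4%, 25.5% and 36.2%. New peaks made up 60 of those 94 (63.8%, beside 31.6% at all other genes), with a median −log10 p of 3.73. At all other genes the share with TFAP2A went from 64.3% to 63.5% and that with SMARCA4 from 57.7% to 58.7%. The share with MITF went there from 45.4% to 42.2% and that with H3K27ac from 56.5% to 64.6%. SMARCA4 peaks that overlapped a SOX10 peak went from 58.0% to 13.1%, and those that overlapped TFAP2A from 60.8% to 36.1%. At all other genes these shares went from 56.3% to 19.5% and from 57.3% to 45.9%.

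**Figure D5:**
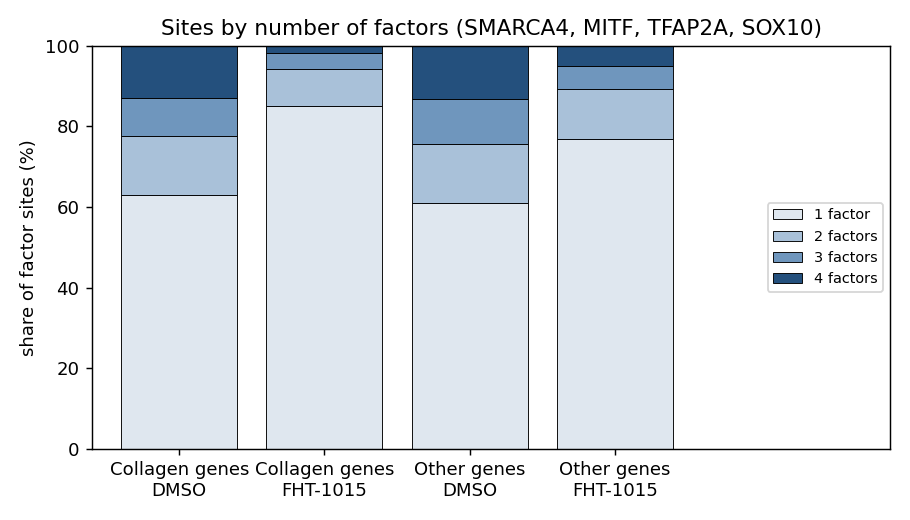
Share of factor sites (vertical axis, percent) that had 1, 2, 3 or 4 of SMARCA4, MITF, TFAP2A and SOX10, for collagen genes and all other protein-coding genes in DMSO and FHT-1015. The share with 4 factors went from 13 to 1.84 at collagen genes and from 13.2 to 5.01 at other genes.

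The genes that make, cut and bind collagen were described beside the collagen genes themselves, as a list of 43. SOX10 went from 211 to 55 peaks at these, with 18.5% (13.8 to 24.3) retained beside 21.3% at all genes but the collagens, and SOX10 at least halved at 21 of the 25 with at least 6 peaks, where 68.7% of all genes so counted did. H3K27ac went from 163 to 113 peaks (61.3% retained), SMARCA4 from 238 to 205 (63.4%), MITF from 154 to 127 (37.0%) and TFAP2A from 303 to 287 (61.4%). An H3K27ac peak lay at the start of 29 of the 43 in DMSO, where 57.9% of all genes and 14 of 44 collagen genes had one, and of 28 in FHT-1015. The hydroxylases and other modifying enzymes of the chains, 15 genes, had it at 13 starts in DMSO, those of P4HA1, P4HB and PLOD1 among them, and at 13 in FHT-1015, and their SOX10 peaks went from 74 to 19. The 4 folding and export genes, with the collagen chaperone gene SERPINH1, went from 12 to 9 SOX10 peaks. The 12 genes of propeptide cleavage and cross-linking, such as BMP1 and LOXL1, went from 59 to 14. The 5 collagenases went from 14 to 3 and the 7 receptors, among them DDR1 and DDR2, from 54 to 12.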

How the data were processed

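ChIP-seq peaks of 10 libraries were analysed, and the input library, for which no list was given here, was not used. BWA, SAMtools, Picard, MACS2 and hg38 are named in the submitters' processing notes, with versions not given in the sources used here. In the deposited narrow lists the fold is the authors' ratio of a summit over background, and significance is given as −log10 of the p-value and of the q-value. The deposited score was 10 times the −log10 p, truncated, in at least 99.9896% of peaks of each list. Reads at a summit were solved from the deposited −log10 p and fold as whole numbers under a Poisson model. In the SOX10 FHT-1015 list this needed a scale of 0.8896, and depth ratios come from the same lists. Peaks were assigned to RefSeq genes (GRCh38) with 5 kb flanks, and peaks in overlapping windows of members were counted once in family and class totals. Overlap code was tested on simulated data. Python 3.11.15, pandas 2.3.3, numpy 2.4.6, scipy 1.17.1 and matplotlib 3.10.9 were used.

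The members and gene lists were chosen with earlier results of these data known. Members with full values were the 10 with most DMSO peaks, the 5 (6 with a tie) whose SOX10 peaks fell most and the 3 where they rose most, and those with all 5 antibodies at the start in DMSO. Sites named were, per antibody, the strongest DMSO peak, the 3 strongest lost peaks and the strongest FHT-1015-only peak. The sites named at COL1A1, COL2A1, COL4A2, COL11A1, COL16A1, COL19A1, COL25A1 and COL28A1, the COL11A2 sites, and the other COL9A3 sites were chosen after their values were seen, as were other members named. No member was without any peak. Alternatives were other overlap rules, stricter peaks, longer genes, other windows and minimums.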

Additional observations from a re-analysis of the deposited data

How the results depend on the processing

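Of the alternative values, 55 stayed close to the value reported (shares and differences within its 95% interval, ratios and counts within 1.5 times) and 27 moved. No ratio other than that of MITF crossed 1; the MITF ratio, 1.00 as reported, was 0.982 with 20 kb flanks and 1.02 without COL25A1. With at least 50% of a DMSO peak covered, the retained share became 35.1% (H3K27ac), 35.8% (SMARCA4), 19.1% (MITF), 48.6% (TFAP2A) and 8.45% (SOX10). With summits within 200 bp it was 35.1% for H3K27ac and 31.4% for SMARCA4. Where both lists were held to a −log10 p of 10 or more, the share was 51.7% for SMARCA4, 22.1% for MITF and 39.6% for TFAP2A, and the ratio of peak numbers was 0.273 (MITF), 0.609 (TFAP2A) and 0.107 (SOX10). The collagen share minus that of other genes was then -23.4 points (H3K27ac), -8.90 (SMARCA4), -18.9 (MITF), -15.2 (TFAP2A) and -2.41 (SOX10), beside -10.2, -14.8, -12.4, -6.25 and -9.51 over all peaks. With q under 0.05 in both lists the ratio was 0.609 for MITF and 0.175 for SOX10. With genes of at least 100 kb only, the difference was -0.515 for TFAP2A and -3.61 for SOX10. Over peaks more than 1 kb from every start, an alternative chosen after seeing the data, H3K27ac differed by -0.665, MITF by -3.88, TFAP2A by -0.888 and SOX10 by -2.44. With at least 10 peaks per gene, 13 of 18 members (72.2%) at least halved their SOX10 peaks, beside 22 of 29 (75.9%) as reported. Fewer members and peaks enter the stricter settings; otherwise the cause was not tested. No paired analysis was possible because the labels give no replicate numbers and each group has 1 library. Depth limits weak peaks most, and a site with no peak called may still hold reads.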
